A study of Mus musculus with 6 samples.

Results

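The 10 genes described here encode Wnt ligands of mouse skin: Wnt3, Wnt4, Wnt5a, Wnt6, Wnt7a, Wnt7b, Wnt10a, Wnt10b, Wnt11 and Wnt16. They were chosen by name, as every probe set that the platform annotation pairs with only that gene symbol, which gave 18 of the 45101 probe sets on the array and 10 of 18193 named genes. The arrays compared 3 samples of mouse embryonic skin labelled Tcfap2c mutant with 3 labelled control, all at embryonic day 16.5 and each on 1 array from total RNA. The samples are labelled skin, while the series title speaks of epidermis. Tcfap2c, now Tfap2c, encodes the transcription factor AP-2 gamma of the surface ectoderm. The allele, its zygosity, the strain, any Cre driver and the litters are not given in the sources used here. The control samples are named so by their titles and source names, while their description field repeats the wording on the mutation, and p-values measure only the spread between these 6 samples.

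Wnt proteins are secreted, lipid-modified signals that bind Frizzled receptors on nearby cells. Canonical ligands act with the co-receptors Lrp5 and Lrp6 to stabilise beta-catenin, which enters the nucleus and switches on target genes with the transcription factors Lef1 and Tcf. Other ligands act mainly through Ror receptors and the planar polarity machinery, which orients cells and, in skin, the hair follicles. In embryonic skin, epidermal Wnt signals are required for the dermis and for the placodes from which hair follicles grow.

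Promoters of these ligands are shown because AP-2 proteins bind GC-rich DNA, with GCCNNNGGC as their textbook core. RefSeq (GRCm38.p6) entries with 250 bases before an annotated start matched 7 of the 10 genes, in 8 windows, since Wnt11 has a pair of starts. Wnt5a, Wnt7b and Wnt10a had no entry, so nothing is said of their promoters. The letters GCCNNNGGC, which read the same on both strands, occurred in 7 of these 8 windows and in 13.7% of 32851 windows of all genes. The windows of Wnt ligands held 56.8% to 85.2% G and C, and of all windows with at least 56.8% G and C, 27.2% held the letters. Among windows with at least 69.4%, the median of the ligand windows, the share was 43.5%. A match is a description of letters and not a binding site. The windows of the ligands that passed the filter on low signal are written 5′ to 3′ in lower case with the matches in capitals, for Wnt4 (chr4:137277385-137277634, plus strand), Wnt6 (chr1:74771642-74771891, plus strand), the first start of Wnt11 (chr7:98834862-98835111, plus strand) and Wnt7a (chr6:91411354-91411603, minus strand).
Wnt4: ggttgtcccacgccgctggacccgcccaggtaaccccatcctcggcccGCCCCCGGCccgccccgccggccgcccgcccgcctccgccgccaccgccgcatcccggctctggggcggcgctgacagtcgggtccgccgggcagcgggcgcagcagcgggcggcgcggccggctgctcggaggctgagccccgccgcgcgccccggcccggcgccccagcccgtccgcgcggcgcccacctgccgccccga
Wnt6: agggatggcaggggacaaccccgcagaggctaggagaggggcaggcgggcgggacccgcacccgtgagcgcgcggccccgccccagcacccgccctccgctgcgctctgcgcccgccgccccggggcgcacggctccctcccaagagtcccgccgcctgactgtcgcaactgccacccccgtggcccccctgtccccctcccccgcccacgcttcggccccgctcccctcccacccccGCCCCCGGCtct
Wnt11: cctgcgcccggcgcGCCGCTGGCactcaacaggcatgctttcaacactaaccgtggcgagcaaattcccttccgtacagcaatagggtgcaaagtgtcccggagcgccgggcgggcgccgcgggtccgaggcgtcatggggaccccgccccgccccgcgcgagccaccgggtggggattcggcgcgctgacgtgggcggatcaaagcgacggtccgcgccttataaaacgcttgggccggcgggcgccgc
Wnt7a: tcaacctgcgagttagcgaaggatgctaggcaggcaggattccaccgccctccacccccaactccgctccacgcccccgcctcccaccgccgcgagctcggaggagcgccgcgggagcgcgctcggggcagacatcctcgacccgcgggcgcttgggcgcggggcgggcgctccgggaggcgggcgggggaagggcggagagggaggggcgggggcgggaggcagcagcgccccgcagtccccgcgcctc
The match in Wnt6 began 12 bases before the start, that in Wnt4 202 bases and that in Wnt11 236 bases before it, and the Wnt7a window held none. The windows of Wnt3, Wnt10b, Wnt16 and the other Wnt11 start also held matches. The letters CTTTGA or, on the other strand, TCAAAG, the core bound by Lef1 and Tcf proteins, occurred in 1 of the 8 ligand windows, that of Wnt11 at 50 bases before the start, and in 13.8% of all windows.

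The signals, all MAS5 signals on a linear scale, had a median per array between 110.4 and 131.5. Skin markers were bright in all 6 arrays. Krt5 and Krt14, keratins of the basal layer, had signals of at least 11821 and 10490, and Col1a1, a collagen of dermis, of at least 18905. Mutant sample 1 stood apart, with a mean correlation with the other arrays of 0.94 against at least 0.961 elsewhere. It alone held high signals of Prl8a2, a decidual hormone, at 14204 against at most 61.2, and of Pgr, the progesterone receptor, at 2719 against at most 128.2. The summed signal of 9 decidual and uterine markers was 52510 in that sample and 798.1 to 1217 in the others. Of these markers, Prl3c1, Calb1 and Ltf were at 2.18, 6.26 and 118 there, no higher than the highest of the other arrays. The sum of 7 basal keratinocyte markers was lowest in the same sample, 36000 against 54130 to 66720. It was the lowest array for 5 of these markers and the highest for 1, Itga6. Decidua and uterus also make Wnt ligands, and the differences of the ligands and of the named pathway genes are therefore given with and without mutant sample 1. Xist, an RNA of female cells, gave 6732 in that sample, 67.9 in mutant sample 2 and 115.8 in mutant sample 3. Control samples 1, 2 and 3 gave 5520, 6312.5 and 119.9. Without mutant sample 1, mutant samples low for Xist are thus compared with mixed controls. Sex was not part of any fit, and its share in those differences was not tested. In bulk skin, fewer cells of a type and less RNA per cell cannot be told apart.

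No Wnt ligand differed between mutant and control skin after adjustment over all probe sets. Wnt10a had the highest difference from control of the 7 tested ligands, and its interval alone excluded 0. The differences of Wnt4, Wnt5a, Wnt7b and Wnt11 lay between -0.06 and 0.15 and those of Wnt6 and Wnt7a were -0.24 and -0.37, all with intervals that span 0. This order rests in part on mutant sample 1, without which Wnt7b was at 0.41, Wnt11 at 0.30, Wnt4 at 0.23 and Wnt6 at 0.09. Of the 10 ligands, 7 passed the filter on low signal, a mean over all arrays above about 114.5, with 13 of 18 probe sets. Wnt3, Wnt10b and Wnt16 did not. Past a limma adjusted p of 0.05 there were 0 of 7 tested ligands, against 0.00444% of the 22518 probe sets tested. At an unadjusted p under 0.05 in limma there was 1 higher, Wnt10a, and 0 lower, where 1.45% of all probe sets were higher and 1.97% lower. The median log2 difference of the 7 ligands was 0.00, beside -0.02 over all probe sets tested. 

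**Figure D1:**
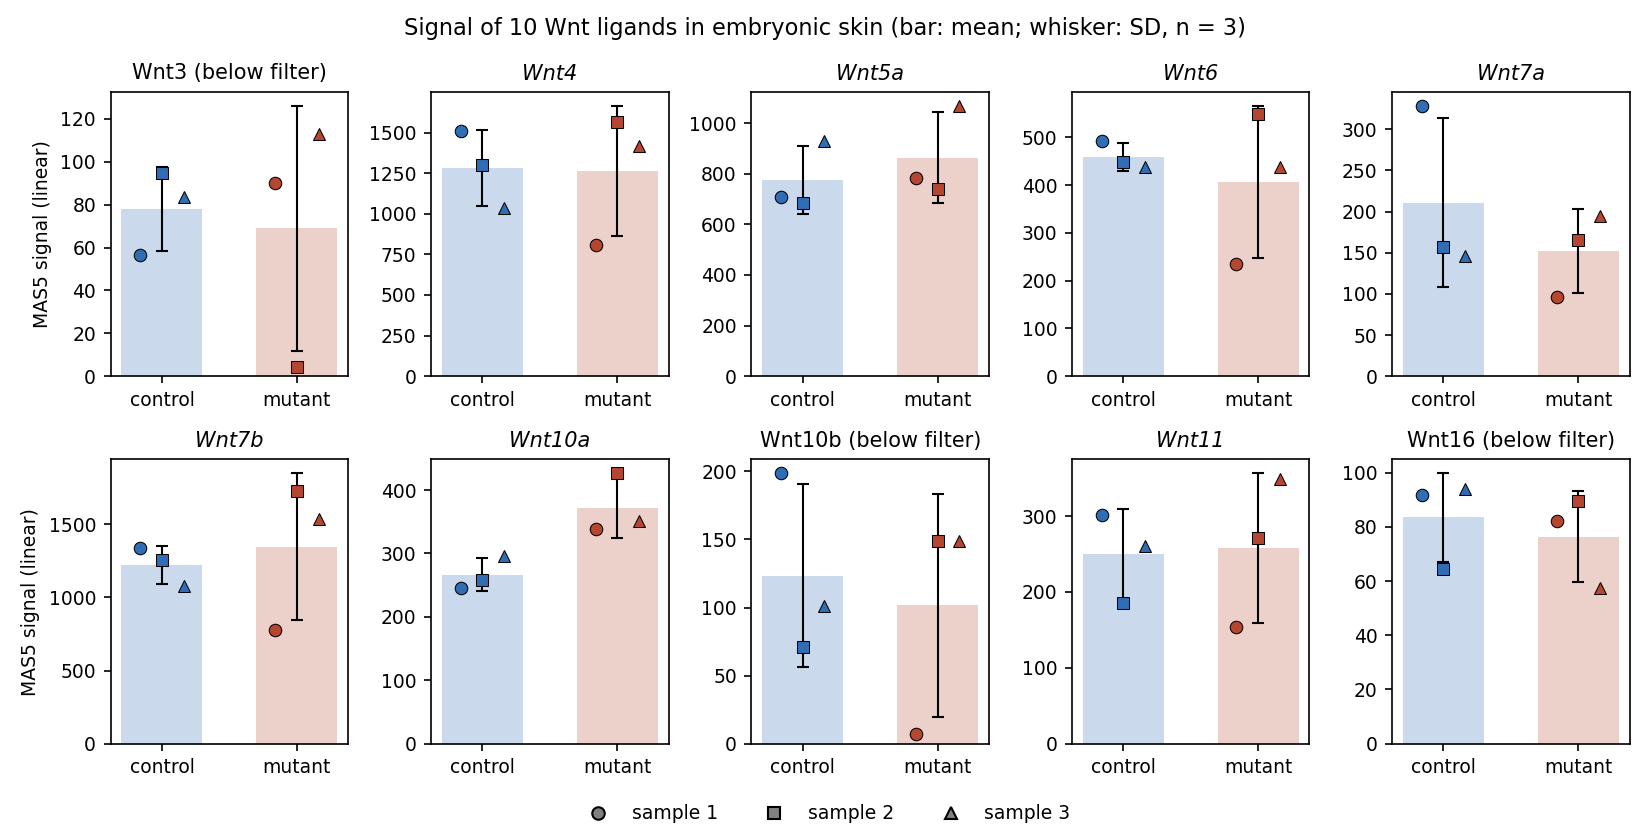
MAS5 signal (linear axis from 0) of each Wnt ligand in the 3 control and 3 mutant samples, by the probe set with the highest mean; bars are means, whiskers SD, and symbols mark the sample number. The 3 mutant samples of Wnt10a lie between 339 and 427, above all 3 control samples, and in Wnt4, Wnt6, Wnt7a, Wnt7b and Wnt11 the lowest point is mutant sample 1.

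Wnt10a is a canonical ligand of the epidermis and the hair placode, and its loss causes ectodermal dysplasia in people. Its 1 probe set gave signals of 339, 427 and 352 in mutant samples 1, 2 and 3 and of 246, 258 and 295 in control samples 1, 2 and 3. Every mutant sample was above every control sample. The means were 372 ± 48 in mutant and 266 ± 26 in control skin (SD, n = 3 each). On the log2 scale Wnt10a differed by 0.44 (SE 0.18, 95% interval 0.04 to 0.84), a 1.36-fold higher level, with a limma unadjusted p of 0.033 and an adjusted p of 0.9999. Groups that do not overlap in the higher direction made up 3.3% of all probe sets tested, and 5.03% did so in the lower direction, where no ligand was found. Without mutant sample 1 the difference was 0.51 (SE 0.19, limma adjusted p = 0.609). With any 1 sample left out it stayed between 0.35 and 0.51, and the unadjusted p between 0.0237 and 0.104, under 0.05 without mutant sample 1 or without control sample 3 and at or above 0.053 without any of the others.

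Wnt10b, its nearest relative and an early mark of the hair placode, was not tested. It did not pass the filter on low signal, which takes the mean over all arrays and so includes the low value of mutant sample 1. Its signals were 6.98, 149 and 149 in mutant and 199, 70.7 and 101 in control samples. Mutant sample 1 was far below the rest, and the other mutant samples lay within the control range. The Wnt10b signal of mutant sample 1 was close to the median of 7.49 that 13 probe sets of Y-linked genes gave in the 3 arrays with high Xist. The 95th percentile of those Y-linked signals was 60.8, and the Wnt10b signals of all other samples were above it. Mutant sample 1 is itself among the arrays with high Xist. Wnt3, a canonical ligand of the epidermis, gave 90.0, 4.12 and 113 in mutant and 56.3, 94.5 and 83.3 in control samples. Its lowest value, in mutant sample 2, and its value in control sample 1 were under that 95th percentile. Wnt16, made by some keratinocytes, gave 82.1, 89.7 and 57.4 in mutant and 91.9, 64.6 and 94.0 in control samples, and the groups overlapped. Its value in mutant sample 3 was also under that percentile. Without a filter the log2 differences of Wnt10b, Wnt3 and Wnt16 were -0.50, -0.40 and -0.10, each with a limma adjusted p of 0.9999. They were 0.32, -0.69 and -0.15 without mutant sample 1, so that of Wnt10b turned its sign.

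Wnt7b, a canonical ligand of the epidermis and of the follicle, gave signals of 779, 1730 and 1536 in mutant and 1335, 1256 and 1079 in control samples. Mutant samples 2 and 3 were above every control sample and mutant sample 1 was below every one. The log2 difference was 0.07 (SE 0.27, 95% interval -0.55 to 0.68, limma adjusted p = 0.9999) with all 6 samples and 0.41 (SE 0.14, 0.10 to 0.72, adjusted p = 0.559) without mutant sample 1. A further Wnt7b probe set, with 163, 515 and 377 in mutant and 326, 299 and 398 in control samples, gave -0.08 and, without that sample, 0.36. Without mutant sample 1 its groups overlapped, unlike those of the brighter probe set. Wnt7a, best known as the signal of dorsal limb ectoderm and of the uterine epithelium, gave 95.9, 166 and 194 in mutant and 329, 157 and 146 in control samples. The highest value was that of control sample 1 and the lowest that of mutant sample 1. The difference was -0.37 (SE 0.34, 95% interval -1.15 to 0.40), and -0.12 without mutant sample 1. A dimmer Wnt7a probe set gave -0.20, or -0.10 without that sample, and the dimmest, at 1.98 to 36.7, did not pass the filter.

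Wnt4, a ligand of the epidermis that can signal with or without beta-catenin, gave 807, 1566 and 1418 in mutant and 1508, 1302.5 and 1038 in control samples. Its other probe set gave 893, 1428 and 1304 in mutant and 1250, 1331 and 816 in control samples. In the first the lowest of the 6 arrays was mutant sample 1, and in the other it was control sample 3. The log2 differences of the pair were -0.06 (95% interval -0.63 to 0.51) and 0.10 (-0.44 to 0.63), and without mutant sample 1 they were 0.23 and 0.30. Wnt6, a ligand of surface ectoderm, gave 234, 549 and 437 in mutant and 493, 449 and 437 in control samples. Mutant sample 1 was far below the controls and mutant sample 2 above them, so the groups overlapped. The difference was -0.24 (SE 0.27, 95% interval -0.86 to 0.38), and 0.09 without mutant sample 1. Its dimmer probe set gave -0.31 and -0.05. Wnt6 and Wnt10a are neighbours on chromosome 1 in RefSeq, and their differences were -0.24 and 0.44, or 0.09 and 0.51 without mutant sample 1. The difference between them was not tested.

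Wnt5a and Wnt11 act mainly without beta-catenin, Wnt5a through Ror2, and both shape cell movement and polarity. Wnt5a, made in the dermis, gave 783, 739 and 1069 in mutant and 708, 686 and 931 in control samples. Sample 3 was the highest in each group and the groups overlapped. The difference was 0.15 (SE 0.19, 95% interval -0.29 to 0.58). Its other probe sets gave 0.19, 0.30 and, below the filter, 0.60, so all 4 were on the higher side, and the 3 tested had limma adjusted p values of 0.9999. Without mutant sample 1 the 4 differences were 0.21, 0.22, 0.27 and 0.51. Wnt11 gave 154, 271 and 349 in mutant and 302, 185 and 261 in control samples. The lowest value was that of mutant sample 1 and the highest that of mutant sample 3. The difference was 0.00 (SE 0.30, 95% interval -0.67 to 0.68), and 0.30 without mutant sample 1.

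**Figure D2:**
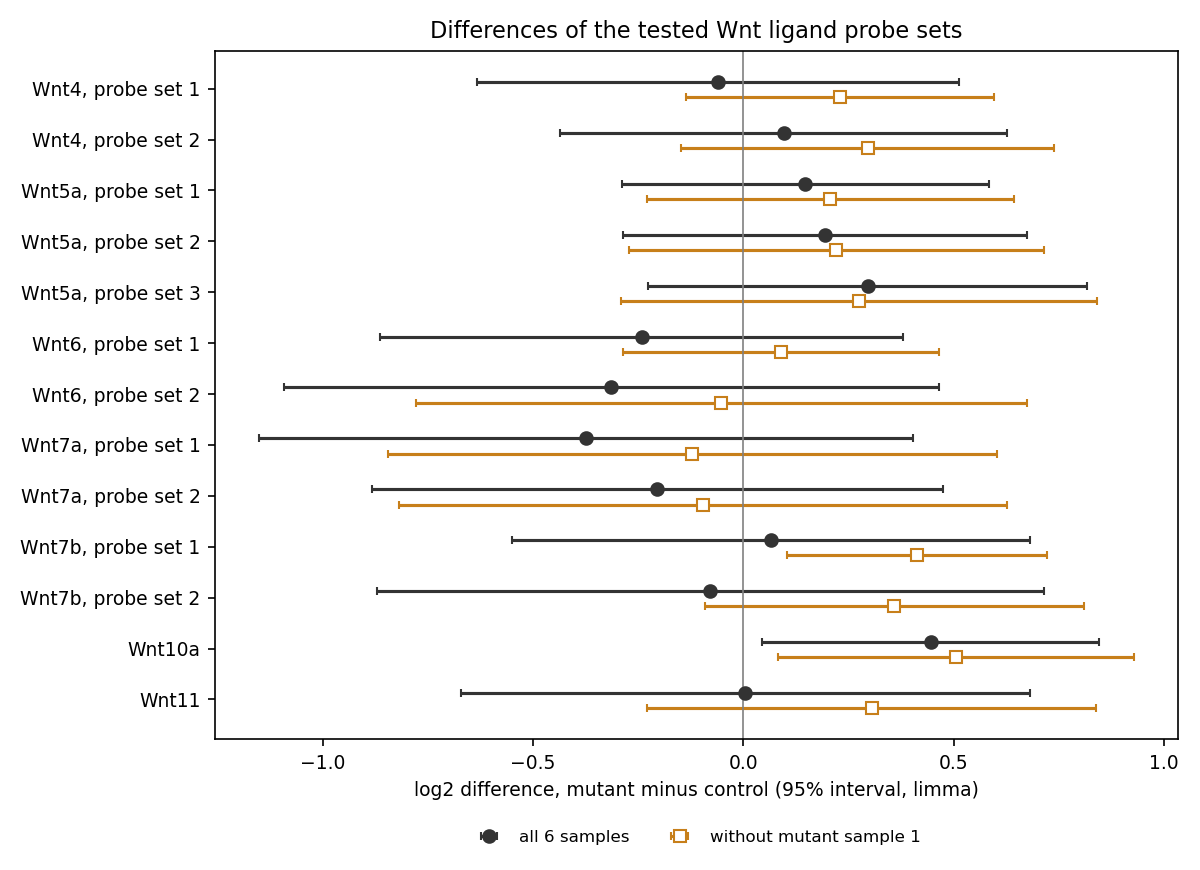
Log2 differences (mutant minus control, with 95% intervals from limma) of the 13 tested probe sets, with all 6 samples (filled circles) and without mutant sample 1 (open squares); probe sets of a gene are numbered from the brightest. The interval of Wnt10a lies above 0 in both fits, and that of the brighter Wnt7b probe set does so only without mutant sample 1.

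Mutant sample 1 was the lowest of the 6 arrays for 5 of the 7 tested ligands, Wnt4, Wnt6, Wnt7a, Wnt7b and Wnt11, and for the untested Wnt10b. Over all probe sets tested it was the lowest array for 31% and the highest for 24.5%. On the log2 scale it lay below the control mean by -0.64 for Wnt4, -0.90 for Wnt6, -0.88 for Wnt7a, -0.63 for Wnt7b and -0.60 for Wnt11. The mean of the basal keratinocyte markers lay at -0.52 in the same array, and at 0.22 and -0.26 in mutant samples 2 and 3. In mutant sample 3 the basal marker Itgb4 was at 45.8, against 178 to 242 in the controls. The summed signal of the basal markers there, 54620, lay within the control range of 54130 to 59350. In mutant sample 1 the mean of hair placode markers lay at -0.69, while decidual and uterine markers lay at 4.32 and smooth muscle markers at 2.56. Wnt5a was at 0.03 and Wnt10a at 0.32 there. Dermal fibroblast markers were at -0.10. The part of these markers in the ligand values was not tested.

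Without mutant sample 1 the remaining groups also differed in Xist, as given above. In that fit 5 of the 7 ligands had a difference above 0.2 and 6 a positive one. The median of the 7 ligands was 0.23, beside -0.01 over all probe sets. None passed a limma adjusted p of 0.05, which 0.173% of all probe sets did. Wnt10a and Wnt7b passed an unadjusted p of 0.05 in the higher direction and 0 in the lower, where 3.26% of all probe sets were higher and 3.89% lower. The 2 remaining mutant samples were both above the controls for Wnt10a and Wnt7b and both below them for 0 ligands, where 10.7% of all probe sets lay apart in the higher and 12% in the lower direction. The mean of hair placode markers was below the control mean in all 3 mutant samples, at -0.69, -0.28 and -0.50, while control sample 2 was at -0.18. The 7 tested markers differed by -1.02 to -0.01 with all samples. Without mutant sample 1 their median was -0.44, with Edar and Dkk4 at 0.09 and 0.06. Fgf20, a placode marker below the filter, went the other way, at 1.06 with all samples. Shh, the hedgehog ligand of placodes, had signals of 647, 649 and 585 in mutant and 1219, 1238 and 1444 in control samples, a difference of -1.02 (SE 0.14, limma adjusted p 0.205), or -1.04 without mutant sample 1 (adjusted p 0.0272).

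**Figure D3:**
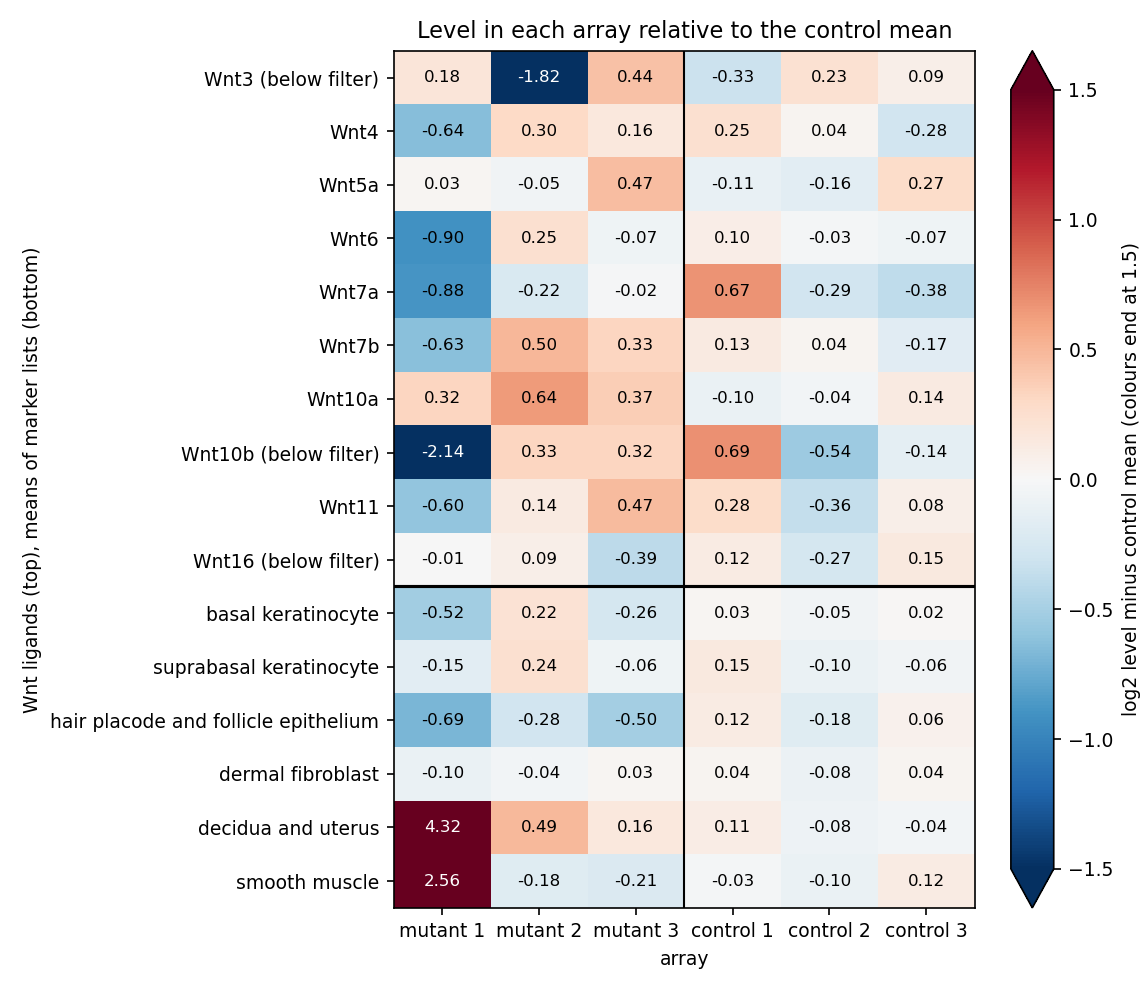
Log2 level in each array minus the mean of the 3 control arrays, for the 10 Wnt ligands (top) and for the mean of the tested genes of 6 marker lists (bottom); the colour scale ends at 1.5 in either direction. Mutant sample 1 is low for Wnt4, Wnt6, Wnt7a, Wnt7b, Wnt10b and Wnt11 and at 4.32 for decidual and uterine markers, and Wnt10a is positive in all 3 mutant arrays.

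The other genes of the pathway showed no difference past the adjusted threshold either. Of 95 listed genes other than the 10 ligands, 93 had a probe set and 77 were tested. Past a limma adjusted p of 0.05 there were 0. At an unadjusted p under 0.05 there were 2 higher and 5 lower, and groups that did not overlap numbered 4 higher and 8 lower. The shares over all probe sets were 1.45% higher and 1.97% lower at that p, and 3.3% and 5.03% without overlap. Without mutant sample 1 there were 1 higher and 6 lower at an unadjusted p under 0.05, beside 3.26% and 3.89% of all probe sets, and 12 higher and 14 lower without overlap, beside 10.7% and 12%. The median difference of the 77 genes was -0.03, and -0.04 without that sample.

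Among the 9 other Wnt ligands, 3 were tested. Wnt2, a canonical ligand of mesenchyme, gave 304, 368 and 446 in mutant and 650, 498 and 533 in control samples, with every mutant sample below every control sample. The difference was -0.57 (SE 0.19, limma unadjusted p 0.0158, adjusted p 0.9999), and -0.44 without mutant sample 1. Wnt9a differed by 0.46, with groups that did not overlap, which was 0.18 without mutant sample 1, where its signal was 306 against 128 to 168 elsewhere. Wnt3a differed by 0.50, or 0.43 without that sample, and its groups overlapped.

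Of 8 genes for making and releasing Wnt ligands 7 were tested, with 5 positive and 2 negative differences between -0.04 and 0.22 and 0 past an unadjusted p of 0.05 in limma. Porcn, the enzyme that attaches the lipid, differed by 0.04 (95% interval -0.58 to 0.65), or by -0.20 without mutant sample 1, where its groups no longer overlapped. Wls, the carrier that takes Wnt ligands to the cell surface, differed by -0.04 (-0.37 to 0.29), or 0.08 without that sample. Tmed5, Vps26a and Vps35, which act in cargo transport, differed by 0.22, 0.12 and 0.03, and by 0.10, 0.17 and 0.05 without it. Groups that did not overlap numbered 0 with all samples, and 3 higher and 1 lower without mutant sample 1. Over all probe sets tested the shares were 3.3% higher and 5.03% lower with all samples. They were 10.7% and 12% without mutant sample 1.

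Of 17 receptors and co-receptors 16 were tested, with 6 positive and 10 negative differences and a median of -0.04. Lrp6, the canonical co-receptor, gave 1366, 956 and 1170 in mutant and 853, 792 and 955 in control samples, so that the highest control sample lay just under the lowest mutant sample. The difference was 0.40 (SE 0.17, limma unadjusted p 0.0399, adjusted p 0.9999) and 0.28 without mutant sample 1. A dimmer Lrp6 probe set differed by 0.03, or -0.24 without that sample. Fzd9, a Frizzled receptor, differed by 0.79 (unadjusted p 0.0425) with overlapping groups, and Fzd5 by 0.37 with groups that did not overlap. They were at 0.77 and 0.30 without mutant sample 1, neither past an unadjusted p of 0.05. R-spondins, which raise the response to Wnt, with their Lgr receptors and the ligases they block, had 5 negative and 1 positive differences among 6 tested genes, with a median of -0.23. Lgr5, which receives R-spondins on follicle progenitors, was at -0.38, with mutant signals of 324, 301 and 383 all below control signals of 434, 416 and 476. Rspo3 differed by -0.53 and Lgr4 by -0.19. Without mutant sample 1 Lgr5 was at -0.36, Lgr4 at -0.23 and Rspo3 at -0.75 (limma unadjusted p 0.00486, adjusted p 0.388), with Rspo3 groups that no longer overlapped. Lgr6, named after its values were seen, went from -0.28 to -0.60 (unadjusted p 0.00953, adjusted p 0.503). Of the 6 genes, 2 were then lower at an unadjusted p under 0.05 and 3 without overlap, against 0 and 1 with all samples. Over all probe sets tested, 3.89% were then lower at that limma p and 12% without overlap. With all samples these shares were 1.97% and 5.03%. None of these receptor and R-spondin genes had a limma adjusted p under 0.05.

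The secreted and surface antagonists were evenly split, with 7 positive and 7 negative differences among 14 tested of 16. Wif1, which binds Wnt ligands outside the cell, gave 1198, 1357 and 1586 in mutant and 2217, 1997 and 1923 in control samples. Every mutant sample was lower. The means were 1380 ± 195 and 2046 ± 153 (SD, n = 3 each), and the difference was -0.57 (SE 0.15, limma unadjusted p 0.00401, adjusted p 0.942), or -0.47 without mutant sample 1. Dkk3, a Dickkopf relative, differed by -0.54 (unadjusted p 0.0411) and Frzb, a decoy of Frizzled type, by -0.40, and without mutant sample 1 they were at -0.43 and -0.48. Dkk1 and Dkk4, which block Lrp5 and Lrp6, differed by 0.28 and -0.11, and Sostdc1, an antagonist made in follicles, by -0.17. Without that sample Dkk1 was at 0.45, with groups that no longer overlapped, Dkk4 at 0.06 and Sostdc1 at -0.08. Sfrp4, chosen after its values were seen, was at 2550 in mutant sample 1 and at 224 to 332 in the other arrays, and its difference went from 0.88 to -0.18 without that sample.

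Inside the cell, Ctnnbip1 had the smallest p among the tested pathway genes. It encodes ICAT, which binds beta-catenin and keeps it from Tcf proteins. Its signals were 1954, 3116 and 2318 in mutant and 5804, 4181 and 6258 in control samples. No mutant sample reached the lowest control sample. The difference was -1.13 (SE 0.21, limma unadjusted p 0.000403, adjusted p 0.413), and -0.98 (adjusted p 0.115) without mutant sample 1. A dimmer probe set gave -0.53, or -0.58 without that sample, with overlapping groups in both fits. The other 18 tested genes of the cytoplasm and nucleus lay between -0.27 and 0.28. Gsk3a, a kinase that marks beta-catenin for decay, differed by 0.28, Bcl9l by -0.27, Lef1 by -0.11 and Ctnnb1, beta-catenin itself, by 0.03. These were at 0.11, -0.09, 0.09 and 0.02 in turn without mutant sample 1. Dimmer Ctnnb1 probe sets gave -0.36 and -0.33, or -0.02 and -0.06 without that sample.

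Targets of beta-catenin had 5 positive and 6 negative differences among 11 tested genes, with a median of -0.01. Groups that did not overlap numbered 1 higher and 3 lower, beside 3.3% and 5.03% of all probe sets tested. Without mutant sample 1 they numbered 3 higher and 3 lower, beside 10.7% and 12%. Axin2, a feedback inhibitor and the usual readout of the pathway, gave 777, 957 and 778 in mutant and 716, 667 and 722 in control samples. Every mutant sample was higher. The difference was 0.24 (SE 0.15, limma adjusted p 0.9999) and 0.29 without mutant sample 1. A dimmer Axin2 probe set, below the filter, gave 0.30, or 0.64 without that sample, and its groups overlapped either way. Ccnd1, which encodes cyclin D1, differed by -0.37 in its brightest probe set (unadjusted p 0.0386), with mutant samples below control samples, and by -0.15 and -0.12 in its other probe sets, whose groups overlapped. The brightest was at -0.25 without mutant sample 1 and no longer past an unadjusted p of 0.05. Of 10 planar polarity genes 9 were tested, with 4 positive and 5 negative differences. Vangl1, Vangl2 and Prickle2, membrane and cytoplasmic proteins of cell orientation, differed by -0.32, -0.26 and -0.11, and by -0.35, -0.14 and -0.16 without mutant sample 1.

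**Figure D4:**
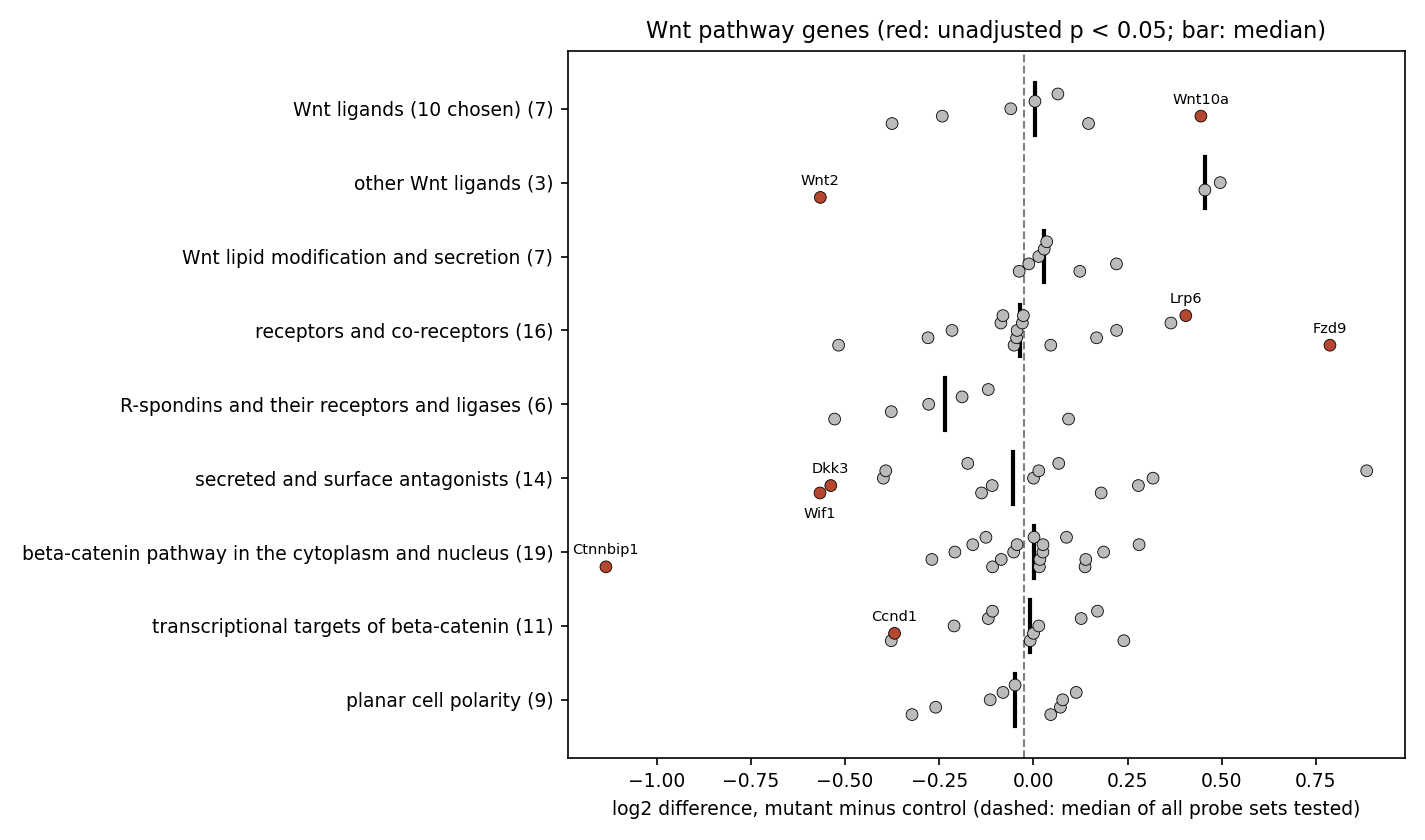
Log2 differences (mutant minus control) of the tested genes in each list, 1 probe set per gene, with the number tested in brackets; black bars are list medians, the dashed line is the median of all probe sets, and red points have a limma unadjusted p under 0.05. Ctnnbip1 at -1.13 lies farthest from the line, and the R-spondin list has the lowest median, -0.23.

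By correlation of log2 levels over the 6 arrays, the genes most like Wnt10a among 11588 other tested genes were Slc25a42, Abhd13 and Eea1, with Pearson r of 0.990, 0.989 and 0.987. These values describe 6 arrays that include the groups' own difference, and 13 genes had r above 0.95. Tfap2c itself was measured by 3 probe sets, which differed by 0.12, 0.14 and 0.01 on the log2 scale and do not check the labels, since which part of the gene was altered is not given in the sources used here.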

How the data were processed

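RNA of 3 Tcfap2c mutant and 3 control samples of embryonic skin was measured on 1-colour Affymetrix arrays. The authors deposited 1 linear intensity for every probe set, its MAS5 signal (MAS5 per the submitters' processing notes, version not named). Each column of these deposited values had a mean of 500 after 2% was trimmed at each end, so arrays had been scaled singly.

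Before the tests 24.48, the 20th percentile over all deposited intensity values, was added to each signal and the log2 taken, which shrinks the differences of dim probe sets. The 64 control probe sets were left out, and 22518 probe sets of 11589 genes whose mean log2 lay above the median were kept. limma 3.58.1 in R 4.3.3 (lmFit, eBayes with trend, two-sided) was run over all of them, with Benjamini-Hochberg adjustment and a threshold of 0.05. A gene's value is that of its probe set with the highest mean. Names came from the platform annotation (34958 probe sets with 1 symbol, 932 with several, 9211 with none), and a comparison with RefSeq by gene identifier changed 0 symbols. Promoters came from RefSeq. The fit was tested on simulated data with independent noise between arrays. Those data held no array that stood apart as mutant sample 1 does, so that case was not covered.

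The members, the pathway lists, the markers and the tests were chosen with earlier results of these data known. The text names all 10 ligands, the 3 genes with the smallest p in each pathway list and a fixed set of pathway and marker genes. Of the listed genes, Kremen2 and Tcf7 had no probe set with 1 symbol. Prap1 and Actg2 of that set lie in the marker lists and are given through them. The fits were repeated under 17 alternatives: other pseudocounts, filters, scalings and variance models, array weights, the replicate number as a block, other ways to represent a gene, and each sample left out. The number of arrays limits the precision. Figures were drawn with matplotlib 3.10.9.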

Additional observations from a re-analysis of the deposited data

How the results depend on the processing

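No tested Wnt ligand passed an adjusted p of 0.05 under any of the 17 alternatives (lowest limma adjusted p 0.341, Wnt10a with array weights), and Wnt10a stayed positive in each (0.35 to 0.51). Its unadjusted p was 0.061 with the replicate number as a block, which left 0 ligands past 0.05 and 8 probe sets past the adjusted threshold. Samples 1, 2 and 3 deviated from their group means with correlations of -0.052, -0.073 and 0.12 between groups, so the numbers are not taken as pairs. Array weights (0.257 for mutant sample 1, 3.13 for mutant sample 3) gave 106 changed probe sets, 2 ligands past an unadjusted 0.05 (Wnt5a, 0.37, and Wnt10a, 0.41) and 1 other pathway gene past the adjusted threshold, Ctnnbip1 (-1.14, adjusted p 0.0152). Averaging the probe sets of each gene gave 2 changed genes. With 1 sample left out, changed probe sets numbered 1 to 39 (39 without mutant sample 1), ligands past an unadjusted 0.05 numbered 0 to 2, and other pathway genes 4 to 7 against 7 (4 without control sample 1 or 2). The median of the 7 ligands was -0.17 to 0.23 there and 0.28 with array weights.

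Of 119 alternative values, 14 had the other sign. Wnt4 was at 0.12 with array weights, 0.018 as a mean over probe sets, and -0.24 to 0.23 with 1 sample left out. Wnt7b was at -0.0070 as a mean over probe sets, and -0.15 to 0.41 with 1 sample left out. Wnt11 was at -0.0070 after median centring, and -0.23 to 0.30 with 1 sample left out. The ranges with 1 sample left out were -0.49 to 0.090 for Wnt6 and -0.013 to 0.28 for Wnt5a. The causes were not tested. The median of all probe sets was -0.025 with all samples, -0.017 after quantile normalization and -0.036 after median centring.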
